A study of Mus musculus with 6 samples.

Results

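The 40 genes described here encode proteins of the lysosome, the acidic compartment in which cells break down proteins, sugars and lipids. They comprise 11 proteases, 15 glycosidases and sulfatases, 7 proteins that handle lipids, and a group of 7 made up of membrane proteins and Tfeb, the transcription factor best known for driving lysosomal genes. The genes were listed by name for what they encode, with earlier results of these data known. Of the 45101 probe sets on each array, 88 were annotated to exactly 1 of these genes, and 38 of the 40 genes were among the 12994 genes tested. Cd63 is not analysed here, and Ctsf reached at most 8.2 intensity units, under the floor of 16 below which intensities were not distinguished.

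Transcripts were measured on Affymetrix mouse arrays in small-intestinal epithelial cells of C57BL/6 mice at 14 days of age, detached with EDTA. In the 3 N-cadherin replacement samples, of the genotype Ecadflox/Ncad;Vil-Cre, N-cadherin took the place of E-cadherin, the adhesion protein of epithelial junctions, where Vil-Cre, a recombinase expressed in gut epithelium, was active. The 3 control samples came from littermates positive for E-cadherin, and their alleles are not given beyond the word control. Both groups shared strain, age and cell preparation. The intensity of Cdh1, which encodes E-cadherin, was 1073, 1175 and 1357 in replacement samples, against 2757, 2335 and 2204 in control samples, and Cdh2, which encodes N-cadherin, did not exceed 13.5 on any array. Which parts of these transcripts the probe sets read, and whether the inserted allele carries them, is not given, so the check of the labels rests on the lower Cdh1.

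Of the probe sets on an array, 55.1% to 61.8% reached the floor. Control 2 and control 3 were nearly alike: over 5109 bright probe sets their log2 values differed with an SD of 0.115, against 0.347 to 0.564 for other pairs of arrays within a group. That SD lay within the range of 18 hybridization controls over all pairs of arrays, 0.0812 to 0.134, so the 2 arrays were averaged and counted as 1 sample, leaving n = 3 replacement and n = 2 control replicates. Separate animals are not named for the arrays, so each p-value reflects how far these samples differ from one another. Precision is limited by how few arrays there are. All 12 epithelial markers were measured, none fell and 1 rose, with summed intensities of 34319 to 45172 in replacement samples and 35247 to 37362 in control samples. In bulk RNA, fewer cells of a type and less RNA per cell cannot be told apart.

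Lysosomal enzymes are made in the endoplasmic reticulum, tagged with mannose 6-phosphate in the Golgi and carried to lysosomes, whose membrane holds the proton pump, ion channels and exporters of digestion products. TFEB binds a short DNA element in many promoters of this gene class and is held in the cytoplasm when nutrient signalling through mTORC1 at the lysosome surface is active. In suckling mammals, enterocytes of the distal small intestine take up milk macromolecules whole and digest them in large lysosomal vacuoles, a capacity that is lost around weaning.

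Of the 38 lysosomal genes measured, 9 fell and 1 rose in N-cadherin replacement epithelium at an adjusted p under 0.05 (limma, Benjamini-Hochberg adjustment over all 12994 genes). Among all genes tested 9.12% passed in either direction. The 9 are 23.7% of the genes measured, where 4.66% of all genes tested passed the same threshold as lower and 4.46% as higher. The median log2 difference, replacement minus control, was -0.52 over the lysosomal genes and -0.02 over all genes tested. Of the 38 genes 32 lay below 0 (84.2%), where 52.0% of all genes tested did. In 23 of the 38 genes (60.5%) all 3 replacement samples lay below all 3 control samples, where 18.8% of all genes tested did so. The reverse held for 3 genes (7.89%), Ctsc, Asah1 and Scarb2, where 17.8% of all genes tested lay wholly above. At an unadjusted p under 0.05, 17 lysosomal genes were lower, where 12.9% of all genes tested were.

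**Figure D1:**
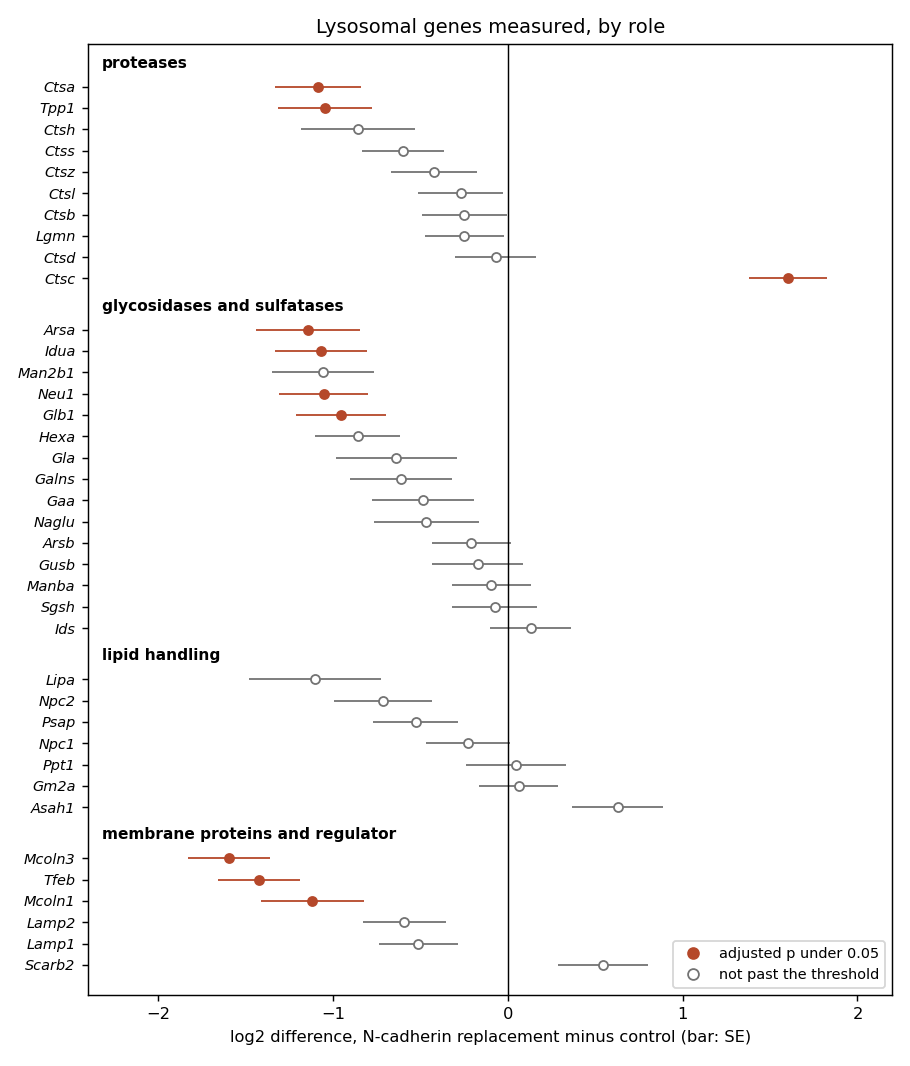
Log2 difference, N-cadherin replacement minus control, of the 38 lysosomal genes measured, grouped by role and ordered within a role (point: estimate, bar: SE of the limma fit). Filled points are the 10 genes past the threshold. Only Ctsc among these lies to the right of 0, and 32 of the 38 points lie to the left.

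By role, 3 of the 6 membrane proteins and regulator measured fell, as did 4 of 15 glycosidases and sulfatases. Among the proteases 2 of 10 fell and 1 rose, and none of the 7 lipid-handling genes passed the threshold in either direction. The median differences were -0.86 for the membrane proteins and regulator, -0.61 for the glycosidases and sulfatases, -0.35 for the proteases and -0.23 for the lipid-handling genes.

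The calls depended on which samples entered the fit, as they did over all genes tested. Without control 1, no lysosomal gene passed the threshold in limma (0 lower, 0 higher, with 18 lower at an unadjusted p under 0.05), with a median difference of -0.72, where 3 of all 12994 genes passed as lower and 8 as higher. Without control 2 and control 3 the counts were also 0 and 0, with 9 lower at an unadjusted p under 0.05 and a median of -0.32, where 1 of all genes passed as lower and 3 as higher. Without replacement 2 or without replacement 3, 2 genes remained lower, Tfeb and Mcoln3, and Ctsc remained higher. Over all genes 261 were lower and 272 higher without replacement 2, and 167 were lower and 207 higher without replacement 3. Where 1 control sample was left, it is assumed to vary like the replacement samples. The share of all genes at an unadjusted p under 0.05 was not counted in those fits. The unadjusted counts of lysosomal genes there therefore have nothing to be set against.

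Tfeb fell. Its intensity was 43.9, 36.9 and 36.7 in replacement samples, against 111, 105 and 93.1 in control samples. The 3 replacement samples lay close together, and the highest of them was less than every control. The difference was -1.42 on the log2 scale (SE 0.232, adjusted p 0.00596), a 2.68-fold lower level. Without control 1 the difference was -1.34 (adjusted p 0.123), and without control 2 and control 3 it was -1.51 (adjusted p 0.126).

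Both mucolipins on the list, cation channels that release calcium from endosomes and lysosomes and are known in vacuolated enterocytes of suckling mice, fell too. Mcoln3 showed the largest fall of the 38 genes, with intensities of 574, 609 and 651 in replacement samples, against 1641, 2048.5 and 2095 in control samples. Its groups were far apart, and control 1 was the lowest control. The log2 difference was -1.59 (SE 0.235, adjusted p 0.00336), or 3.02-fold lower. Mcoln1 had 223, 250.2 and 219 in replacement samples, against 365, 698.5 and 675 in control samples. Here control 1 stood between the replacement samples and the other controls, without overlap, and the log2 difference was -1.12 (SE 0.296, adjusted p 0.0461). Without control 1 the differences were -1.76 for Mcoln3 (adjusted p 0.0768) and -1.57 for Mcoln1 (adjusted p 0.0881). Without control 2 and control 3 they were -1.43 for Mcoln3 (adjusted p 0.122) and -0.66 for Mcoln1 (adjusted p 0.279). The Mcoln1 call also ended without control 2 or without any 1 replacement sample (adjusted p 0.0521 to 0.164).

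The structural glycoproteins of the lysosomal membrane did not pass the threshold. Lamp1, a heavily glycosylated protein that lines the lysosomal membrane, had 2654, 2348 and 2393 in replacement samples, against 3392, 3544 and 3732 in control samples. Lamp2, its relative that also serves in autophagy, had 1461, 1368 and 1235 in replacement samples, against 1814, 2279.8 and 2290.3 in control samples. In both genes every replacement sample lay below every control, with log2 differences of -0.51 for Lamp1 (95% interval -1.02 to -0.01, adjusted p 0.2) and -0.59 for Lamp2 (95% interval -1.13 to -0.06, adjusted p 0.159). Scarb2, a membrane protein of lysosomes that also serves as a sorting receptor, ran the other way with 746, 840.2 and 859 in replacement samples, against 686, 433.5 and 474 in control samples. All replacement samples were above the controls, and control 1 was nearest to them. Its difference of 0.54 did not pass the threshold (95% interval -0.04 to 1.13, adjusted p 0.233).

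**Figure D2:**
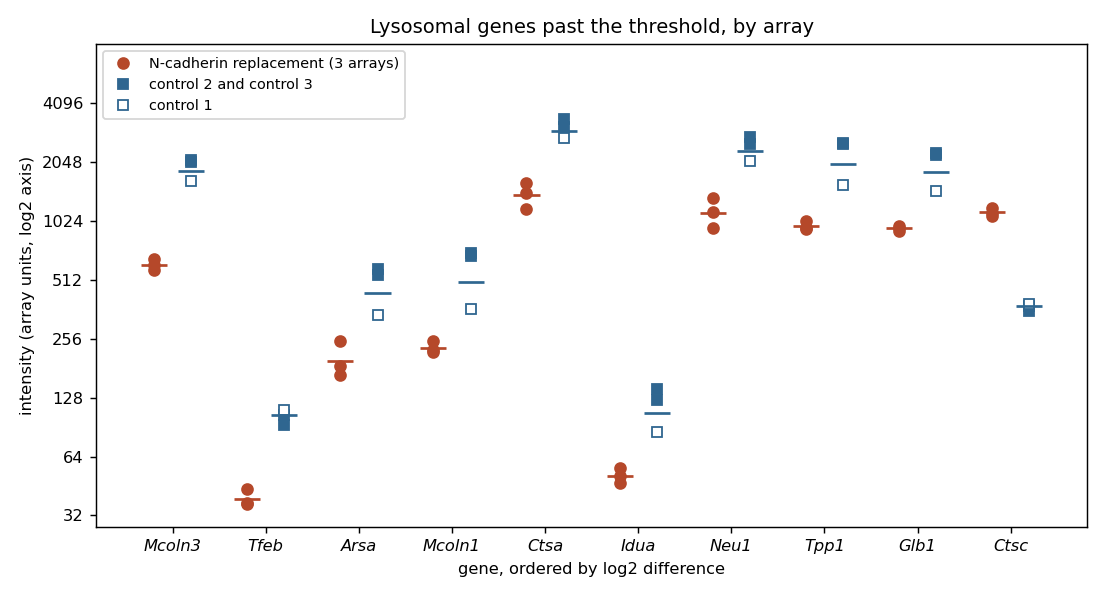
Intensity of the 10 lysosomal genes past the threshold on each array, on a log2 axis, ordered by log2 difference. Circles are the 3 N-cadherin replacement samples, filled squares control 2 and control 3, open squares control 1, and short lines the geometric mean of the replicates. In 9 genes all circles lie below all squares and in Ctsc all lie above. The open square is the lowest control in 8 of these 9 genes, all but Tfeb.

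TFEB is known to bind a CACGTG core, extended in many lysosomal genes to TCACGTGA, and the promoters of the members were searched for both. RefSeq promoters of build GRCm38.p6, each running from 250 bases before the annotated start to 50 bases after it, were matched for 35 of the 40 genes, and both motifs read the same on either strand, the second containing the first. The sequences below are the 120 bases before the start of 4 genes that fell (Ctsa, Mcoln1, Glb1, Arsa) and of Lamp1 and Ctsd, which did not pass the threshold. They were picked among the members with a match to show where the element lies, with each CACGTG in capitals.
Ctsa: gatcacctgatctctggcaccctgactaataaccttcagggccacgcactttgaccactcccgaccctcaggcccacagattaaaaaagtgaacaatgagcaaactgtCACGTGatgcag
Mcoln1: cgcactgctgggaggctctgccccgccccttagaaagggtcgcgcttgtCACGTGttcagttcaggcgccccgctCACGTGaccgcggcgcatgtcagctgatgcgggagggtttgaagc
Glb1: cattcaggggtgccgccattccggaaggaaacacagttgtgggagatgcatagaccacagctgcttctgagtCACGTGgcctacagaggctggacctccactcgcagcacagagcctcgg
Arsa: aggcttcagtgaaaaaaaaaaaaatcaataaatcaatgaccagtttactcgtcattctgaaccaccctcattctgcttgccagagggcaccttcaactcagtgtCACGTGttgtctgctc
Lamp1: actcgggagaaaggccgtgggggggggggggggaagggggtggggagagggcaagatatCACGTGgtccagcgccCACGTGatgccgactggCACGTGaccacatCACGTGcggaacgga
Ctsd: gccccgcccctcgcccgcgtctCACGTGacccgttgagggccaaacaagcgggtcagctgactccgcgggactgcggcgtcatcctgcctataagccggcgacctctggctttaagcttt
The Ctsa, Mcoln1 and Ctsd stretches hold the longer TCACGTGA. Lamp1 holds 4 CACGTG matches in this stretch, Mcoln1 holds 2 and the other genes 1. The intervals on the genome are chr2:164833653-164833772 (plus strand) for Ctsa, chr8:3500399-3500518 (plus) for Mcoln1, chr9:114400958-114401077 (plus) for Glb1, chr15:89477425-89477544 (minus) for Arsa, chr8:13159041-13159160 (plus) for Lamp1 and chr7:142387828-142387947 (minus) for Ctsd.

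CACGTG was found in the promoters of 13 of 35 members (37.1%), of 11.2% of the 10509 tested genes with a promoter in the table and of 7.15% of all 32851 promoters. TCACGTGA was found in 4 members (11.4%), Ctsa, Ctsd, Mcoln1 and Gla, in 2.03% of the tested genes with a promoter and in 0.974% of all promoters. Among measured members, 4 of 12 with CACGTG fell and 5 of 21 without it fell, with median differences of -0.50 with the motif and -0.59 without it. Tfeb, Mcoln3 and Ctsc, with the largest differences, had no match in this window, and Lamp1 and Ctsd, with matches, did not pass the threshold. A match describes these letters and not bound protein.

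Among the glycosidases and sulfatases, enzymes that strip sugars and sulfate groups from glycoproteins, glycolipids and glycosaminoglycans, Arsa, Idua, Neu1 and Glb1 fell. Arsa, the arylsulfatase that acts on sulfatide, had 249, 167 and 185 in replacement samples, against 339.7, 544 and 578 in control samples, a log2 difference of -1.14 (SE 0.296, adjusted p 0.0429). Idua, which removes iduronic acid from heparan and dermatan sulfate, had the dim values 46.6, 50.6 and 55.6 in replacement samples, against 85.4, 141 and 124 in control samples, a difference of -1.07 (SE 0.264, adjusted p 0.036). In both, the replacement samples stood below all controls, with control 1 the lowest control.

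Neu1 and Glb1 encode the lysosomal sialidase and beta-galactosidase, which form a complex with the protein of Ctsa. Neu1 had 1335, 1133 and 945.5 in replacement samples, against 2074, 2538 and 2737 in control samples, a difference of -1.05 (SE 0.255, adjusted p 0.0338). Glb1 had 936, 962.5 and 911 in replacement samples, against 1462, 2268 and 2223.5 in control samples, a difference of -0.95 (SE 0.257, adjusted p 0.0494), the highest adjusted p of the 10 genes past the threshold. Neither gene's groups overlapped, and control 1 was the lowest control in both. Without control 1 the 4 calls in this role ended, at adjusted p 0.111 to 0.175, with differences of -1.50 for Arsa, -1.38 for Idua, -1.26 for Glb1 and -1.23 for Neu1. Without control 2 and control 3 the differences were -0.78 for Arsa, -0.75 for Idua, -0.64 for Glb1 and -0.88 for Neu1, at adjusted p 0.252 to 0.325. Without replacement 2 or without replacement 3 the 4 calls ended as well (adjusted p 0.0992 to 0.159), and the Idua call ended without replacement 1 (adjusted p 0.0573). The Glb1 call ended whichever array was left out (adjusted p 0.0516 to 0.159).

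Man2b1 and Hexa, the lysosomal alpha-mannosidase and a beta-hexosaminidase subunit, missed the threshold narrowly. Man2b1 had 656, 610 and 719 in replacement samples, against 1009, 1874 and 1865 in control samples, a difference of -1.06 (95% interval -1.72 to -0.40, adjusted p 0.0548). Hexa had 1287, 1197 and 1146 in replacement samples, against 1888, 2538 and 2554 in control samples, a difference of -0.86 (95% interval -1.40 to -0.32, adjusted p 0.0571). Both had all replacement samples below all controls.

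Gaa, which breaks down glycogen, and the sulfatases Galns and Arsb likewise had groups that did not overlap, though none passed the threshold. Gaa had 331, 212 and 336 in replacement samples, against 336, 493 and 463.5 in control samples, with the lowest control and the highest replacement sample almost equal. Galns had 599, 536 and 520.1 in replacement samples, against 617, 1165.5 and 1128.5 in control samples, where control 1 lay close to replacement 1. Arsb had 111, 109 and 123 in replacement samples, against 133, 134.5 and 128 in control samples, a span narrower than that of the other 2. The differences were -0.48 for Gaa (95% interval -1.14 to 0.17), -0.61 for Galns (95% interval -1.27 to 0.05) and -0.21 for Arsb (95% interval -0.71 to 0.30). The groups of the remaining 6 genes in this role overlapped, with differences of -0.64 for Gla (95% interval -1.41 to 0.14) to 0.13 for Ids (95% interval -0.39 to 0.65), and Naglu, Gusb, Manba and Sgsh between them.

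In the proteases, Ctsa and Tpp1 fell and Ctsc rose. Ctsa, a carboxypeptidase that also protects the sialidase and beta-galactosidase named above, had 1607, 1416 and 1183 in replacement samples, against 2698.5, 3077 and 3376 in control samples. Tpp1, which removes tripeptides from the ends of proteins, had 1027, 943 and 925 in replacement samples, against 1561, 2518 and 2562 in control samples. The replacement samples lay below all controls in both, and in Tpp1 they were tightly grouped while control 1 lay well under the other controls. The differences were -1.08 for Ctsa (SE 0.246, adjusted p 0.0257) and -1.05 for Tpp1 (SE 0.268, adjusted p 0.0414).

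Ctsc encodes cathepsin C, a dipeptidyl peptidase known for activating granule serine proteases. Its intensity was 1087, 1192 and 1127 in replacement samples, against 384, 354 and 376 in control samples. Both groups were narrow and far apart, and the difference was 1.60 (SE 0.224, adjusted p 0.00259), or 3.03-fold higher. Without control 1 it was 1.64 (adjusted p 0.0804) and without control 2 and control 3 it was 1.56 (adjusted p 0.105). Without control 1, Ctsa had -1.21 (adjusted p 0.167) and Tpp1 -1.40 (adjusted p 0.0999). Without control 2 and control 3 Ctsa had -0.96 (adjusted p 0.228) and Tpp1 -0.69 (adjusted p 0.258). Without replacement 2 or without replacement 3 the Ctsa and Tpp1 calls ended also, at adjusted p 0.0784 to 0.148.

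The remaining proteases did not pass. Ctsh, an aminopeptidase, had 901, 844 and 666.5 in replacement samples, against 1003, 2067.5 and 2093 in control samples, with control 1 near replacement 1. Ctss, a cathepsin best known in antigen presentation, had 2150.2, 1739.8 and 1713 in replacement samples, against 2699, 2897 and 2984 in control samples, and every replacement sample was lower than every control. Ctsz, a carboxypeptidase, had 3121, 2392 and 2311 in replacement samples, against 3303.5, 3397 and 3886 in control samples, with the highest replacement sample close to control 1. Lgmn, the asparaginyl endopeptidase, had 3244, 3128.5 and 3255 in replacement samples, against 3624, 3797 and 4233 in control samples, a narrower gap. The differences were -0.86 for Ctsh (95% interval -1.59 to -0.12), -0.60 for Ctss (95% interval -1.13 to -0.07), -0.42 for Ctsz (95% interval -0.97 to 0.13) and -0.25 for Lgmn (95% interval -0.75 to 0.25). The groups of Ctsb, Ctsl and Ctsd, the main endopeptidases, overlapped, with differences of -0.25 for Ctsb (95% interval -0.79 to 0.29), -0.27 for Ctsl (95% interval -0.82 to 0.28) and -0.07 for Ctsd (95% interval -0.59 to 0.45).

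The lipid-handling genes lay on both sides of 0, and none passed the threshold. Lipa, the acid lipase that frees cholesterol from its esters, had 863, 375 and 366.5 in replacement samples, against 1205.5, 922.5 and 921 in control samples. Replacement 1 was near the controls at 863, while the other replacement samples were well below, and the difference of -1.10 (95% interval -1.95 to -0.25) did not pass the threshold (adjusted p 0.107). Npc2, which hands cholesterol to the exporter NPC1, had 1310, 1046.5 and 1003 in replacement samples, against 1436, 2270.5 and 2365 in control samples. Psap, the precursor of saposins, had 1029.6, 885 and 1081 in replacement samples, against 1271, 1604 and 1634 in control samples. All replacement samples lay below all controls in both, with differences of -0.71 for Npc2 (95% interval -1.34 to -0.09, adjusted p 0.148) and -0.53 for Psap (95% interval -1.07 to 0.01, adjusted p 0.217). Asah1, the acid ceramidase, was the exception in direction with 887, 1152 and 1006 in replacement samples, against 544, 793 and 777 in control samples, the replacement samples all higher and replacement 1 the nearest to the controls. Its difference of 0.63 did not pass (95% interval 0.04 to 1.21, adjusted p 0.171). Npc1, Gm2a and Ppt1 overlapped between groups, with differences from -0.23 to 0.06.

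**Figure D3:**
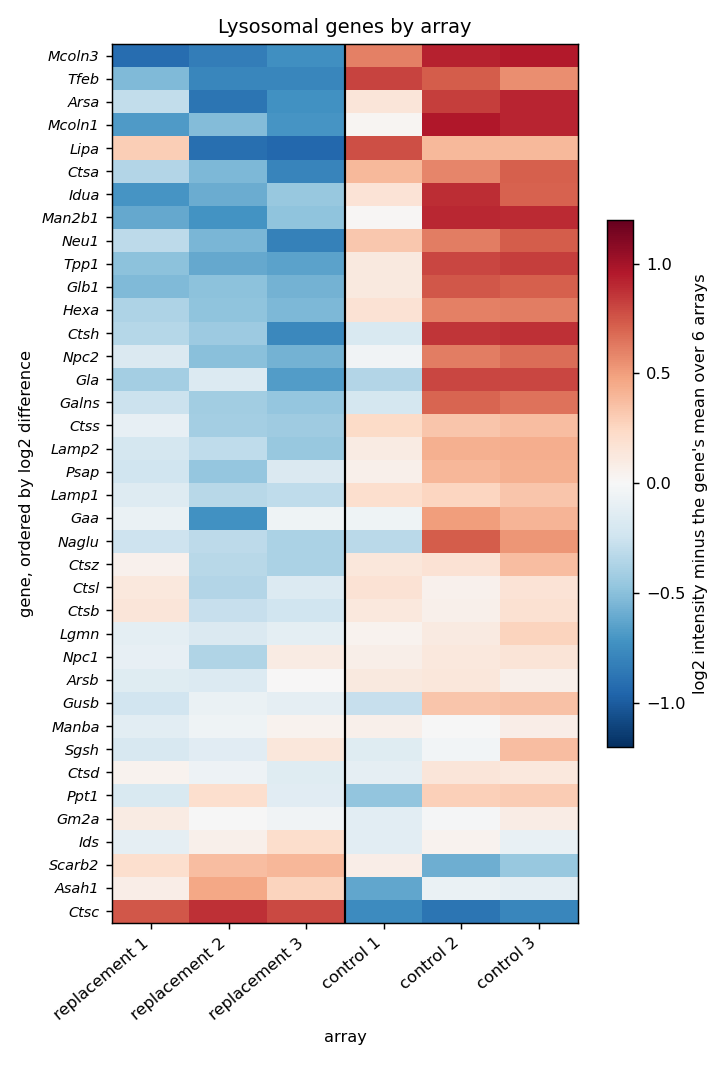
Log2 intensity of the 38 lysosomal genes measured, minus each gene's mean over the 6 arrays, with genes ordered by log2 difference from the lowest at the top and replacement samples left of the line. Columns of control 2 and control 3 are the reddest in most of the upper part and control 1 is paler, except in Tfeb and Lipa, where control 1 is the reddest, and Ctsc, Asah1 and Scarb2 at the bottom show the reverse pattern.

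The median deviation of the 38 genes from each gene's mean was -0.19, -0.36 and -0.38 in replacement samples, against 0.07, 0.39 and 0.40 in control samples, where no array's median over all genes tested lay outside -0.03 to 0.03. Control 3 was the highest array in 20 of the 38 genes and control 2 in 10, while replacement 3 was the lowest in 17 and replacement 2 in 10. Of the controls, control 1 had the median nearest to the replacement samples. It was higher than the mean of control 2 and control 3 in 8 of 38 lysosomal genes (21.1%), where it was higher in 52.7% of all genes tested. The median of control 1 minus the mean of the other controls was -0.33 over the lysosomal genes and 0.03 over all genes.

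Several values that separate control 1 from the other controls stood beside this. By Xist and Y-linked transcripts, 2 of 3 replacement samples and 1 of 3 control samples were female, and the control that differed in sex was control 1. Summed ileal markers came to 517, 777 and 1065 in replacement samples, against 221, 1733 and 1764 in control samples. Fabp6, an ileal bile acid binding protein, was at 0.3 in control 1. Slc10a2, another marker on the ileal list, did not follow the sum. It had 18.7, 66.5 and 38.2 in replacement samples, against 0.8, 1.3 and 2.1 in control samples. Summed fibroblast markers were 326, 369 and 426 in replacement samples, against 1017, 160 and 170 in control samples. Summed Paneth cell markers were 4234, 3506 and 2673 in replacement samples, against 6863, 2795 and 2919 in control samples. With sex as a term in the limma fit, 9 genes were lower and 1 higher, without Glb1 (adjusted p 0.0509). Summed markers of the proximal small intestine were 8222 to 11531 in replacement samples and 11421 to 12307 in control samples. What part the intestinal region, the fibroblast markers or the Paneth cell markers had in the lysosomal values was not tested.

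Macrophages are rich in lysosomes, and their markers were read as a list. Of 13 markers 7 were measured, 2 of which fell (Csf1r and Mertk) and 2 of which rose (Cd14 and Mrc1), named after their values were seen. The summed intensity was 1612 to 2225 in replacement samples and 3400 to 3824 in control samples, and Csf1r was its largest part. Csf1r alone had 1271.4, 777.1 and 737.6 in replacement samples, against 2427, 2442.5 and 2504 in control samples. Cd14 had 151.3, 166.9 and 125 in replacement samples, against 28.2, 20.3 and 19.1 in control samples. Mrc1 had 74.8, 151 and 177 in replacement samples, against 29.7, 26.8 and 24.9 in control samples. The sum therefore does not stand for the whole list. The defining C1qa had 34.8, 2 and 4.5 in replacement samples, against 73.4, 1.6 and 2.6 in control samples, and Cd163 did not exceed 3.2 anywhere. Adgre1, which encodes the macrophage surface protein F4/80, had 35.3 to 49.5 in replacement samples and 36.7 to 57 in control samples, and the T cell marker Cd3e stayed under the floor. The part of these cells in the lysosomal values was not tested.

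Most members were read by more than 1 probe set. Of 24 genes with at least 2 probe sets over the filter, 21 had all their differences on 1 side of 0, and the 3 others, Gusb, Npc2 and Sgsh, had both signs. Over the 38 further probe sets the median difference was -0.63, and 27 lay below 0. Ctsa had -1.14 in its other probe set, Tpp1 -1.28, Mcoln3 -1.43 and Mcoln1 -1.34 and -1.06. In a limma fit over all probe sets over the filter, those of Tpp1 and Mcoln3 passed (adjusted p 0.0290 and 0.0319). Those of Ctsa and Mcoln1 did not (adjusted p 0.0676 to 0.0849). Of the probe sets that stand for the called genes, those of Ctsc, Mcoln3 and Tfeb passed in that fit (adjusted p 0.0121 to 0.0209). The remaining ones did not (adjusted p 0.0600 to 0.103). The Idua and Neu1 calls were less even. A second Idua probe set had 62.9, 60.7 and 72.8 in replacement samples, against 78.8, 55.7 and 62.5 in control samples, a difference of -0.06. Neu1 had -1.22 in one further probe set and -0.07 in a dim one open to cross-hybridization. In Ctsc the other probe sets were near the floor, with differences of 0.55 and 0.23. Ctsb ran from -0.25 to -1.68 over 5 probe sets. The one at -1.68 had 174.5, 154.6 and 196.1 in replacement samples, against 453.1, 671.5 and 699.3 in control samples. That probe set passed in the limma fit over all probe sets (adjusted p 0.0205), though the one that stands for Ctsb did not. Ctsl had -1.37 in its dimmer probe set, which did not pass in that fit (adjusted p 0.109). Control 1 was the highest control in the other Mcoln3 probe set, at 1159.9 against 706.9 and 859.9. It was also the highest control in the dimmest Mcoln1 probe set, at 76.5 against 39.9 and 45.5. Arsa, Glb1 and Tfeb were each read by 1 probe set over the filter.

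**Figure D4:**
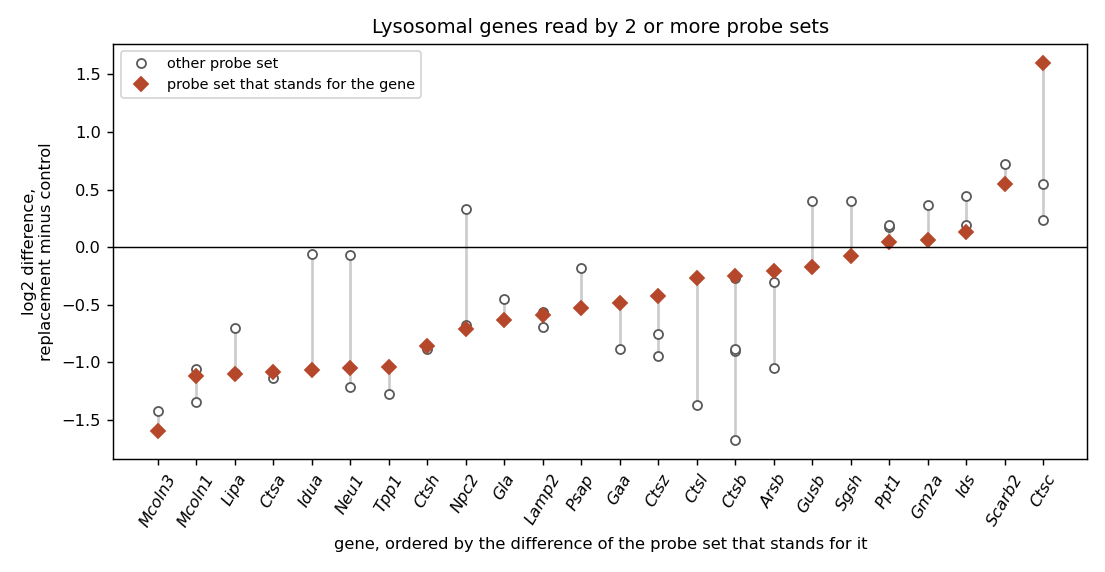
Log2 difference, replacement minus control, of each probe set over the filter for the 24 lysosomal genes with at least 2 of them. Diamonds are the probe set with the highest mean intensity, which stands for the gene, and open circles the others. Ctsb, Ctsc, Neu1, Ctsl and Npc2 span the widest ranges, and Gusb, Npc2 and Sgsh cross 0.

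Genes that serve the same organelle were followed through 7 further lists of 147 genes, of which 134 were measured. In these, 29 genes fell (21.6%) and 1 rose, where 4.66% and 4.46% of all genes did. Of the 134 genes 112 lay below 0 (83.6%), where 52.0% of all genes did, and the median difference was -0.53. Without control 1, and also without control 2 and control 3, none of these 30 calls held in limma (0 of 30, adjusted p at least 0.0667 without control 1 and at least 0.102 without control 2 and control 3). Of all 12994 genes, 3 lower and 8 higher passed without control 1, and 1 lower and 3 higher without control 2 and control 3. Without replacement 2, 13 of the 30 held, and without replacement 3, 6 held. Without a filter on dim probe sets 1 of the 30 held, with the floor set at 4, 20 held, and with each array scaled to its median 23 held.

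The other acid hydrolases had the lowest median, -0.83, and 8 of 22 measured fell. The largest falls were in Arsg, the sulfatase that acts on heparan sulfate, at -2.27 (218, 109.8 and 92.7 in replacement samples, against 819, 504 and 466 in control samples, adjusted p 0.00712) and Cpq, a carboxypeptidase, at -2.22 (193, 168 and 143 in replacement samples, against 667, 898 and 924 in control samples, adjusted p 0.00104). Neither gene's groups overlapped. Dpp7 had -1.49, Ggh -1.32, Man2b2 -1.31, Aga -1.12, Ctso -1.12 and Dnase2a -1.11, covering a dipeptidyl peptidase, a folate hydrolase, a mannosidase, a glycoprotein amidase, a cysteine protease and an acid nuclease.

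The proton pump that acidifies lysosomes has alternative forms of its membrane subunit a, of which 2 fell and 1 rose. Of the 18 pump genes measured these are 11.1% lower and 5.56% higher, where 4.66% and 4.46% of all genes were. The share that rose is near that of all genes. Atp6v0a1 fell by 1.83 (limma adjusted p 0.00965), with 186, 85.2 and 106.5 in replacement samples, against 437, 401 and 421 in control samples, and Tcirg1, the form known in osteoclasts, had a difference of -1.02 (adjusted p 0.0294), with 154, 188 and 176 in replacement samples, against 392, 304.5 and 317.5 in control samples. Atp6v0a2 rose by 0.94 (adjusted p 0.047), with 266, 288 and 340.4 in replacement samples, against 135, 181 and 175 in control samples. The rise of Atp6v0a2 did not pass under quantile normalization, array medians or a floor of 4 (limma adjusted p 0.0513 to 0.0787), nor with the mean of all its probe sets (0.65, adjusted p 0.104). With the mean of probe sets Atp6v0a1 had -1.12 (adjusted p 0.0174). Over the 18 subunits measured the median was -0.55, and Atp6v0c is not analysed here. Subunit forms are read by different probe sets, so their levels are not set against each other.

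Of 18 genes that tag or sort enzymes by mannose 6-phosphate, 5 fell, with a median of -0.54. Igf2r, the large mannose 6-phosphate receptor, fell by 1.35 (adjusted p 0.0139), with 431, 314 and 417 in replacement samples, against 825, 1229 and 1106 in control samples. Gga2, an adaptor for that receptor, had -1.61, Gnptg, a subunit of the tagging enzyme, -1.25 and Cln6, which aids export of hydrolases from the endoplasmic reticulum, -1.34. Gga1 had 1 replacement sample under the floor at 13.1, so its difference of -1.98 is a lower bound in size, at least 3.94-fold lower.

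Among 24 other proteins of the lysosomal membrane 5 fell, with a median of -0.51. They were Ctns, which exports cystine, at -1.73 (adjusted p 0.00372), Slc17a5, which exports sialic acid, at -1.13, the chloride exchangers Clcn6 at -1.64 and Clcn7 at -1.09, and Ostm1, the partner of the CLC-7 protein, at -1.07. Lamp3 is not analysed here.

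Among Tfeb's relatives and the machinery that senses nutrients at the lysosome, 4 of 18 fell with a median of -0.61. Tfec, a relative of Tfeb, had 367, 451 and 302 in replacement samples, against 1128, 1668 and 1764 in control samples, a difference of -1.92 (adjusted p 0.00332). Rragd, a Rag GTPase that recruits mTORC1 to lysosomes, had 257.5, 219 and 234 in replacement samples, against 715.5, 974 and 894 in control samples, a difference of -1.79 (adjusted p 0.00214). In both, every replacement sample was under every control by a wide margin. Flcn and Fnip2, which form a complex acting on that GTPase, had -1.18 for Flcn and -0.95 for Fnip2. Mitf was under the floor, with at most 13.5, and Rragb is not analysed here.

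Autophagy genes had a smaller shift, with a median of -0.37 over 16 genes and 1 call, Map1lc3a, which encodes a form of the autophagosome protein LC3, at -1.44 (adjusted p 0.0415). That share, 1 of 16, is near the 4.66% of all genes, and the call rests on a probe set that may cross-hybridize. So do the companion calls of Gga1, Dnase2a, Flcn and Cubn. Without such probe sets Flcn had -0.95 (limma adjusted p 0.0478) and Cubn -1.82 (adjusted p 0.00607), while Gga1 and Dnase2a were not measured. The Map1lc3a difference was then -1.07 (limma adjusted p 0.142). The call also ended with the mean of all probe sets, the array medians or a floor of 4 (adjusted p 0.0600 to 0.0826). In the endocytosis list the median was -0.11, nearer to that of all genes, and 4 of 18 fell. These were Cubn at -1.47, Amn at -1.04 and Dab2 at -0.98, parts of the receptor complex with which enterocytes of the suckling intestine take up protein, and Prdm1, a transcription factor of suckling enterocytes, at -1.08.

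**Figure D5:**
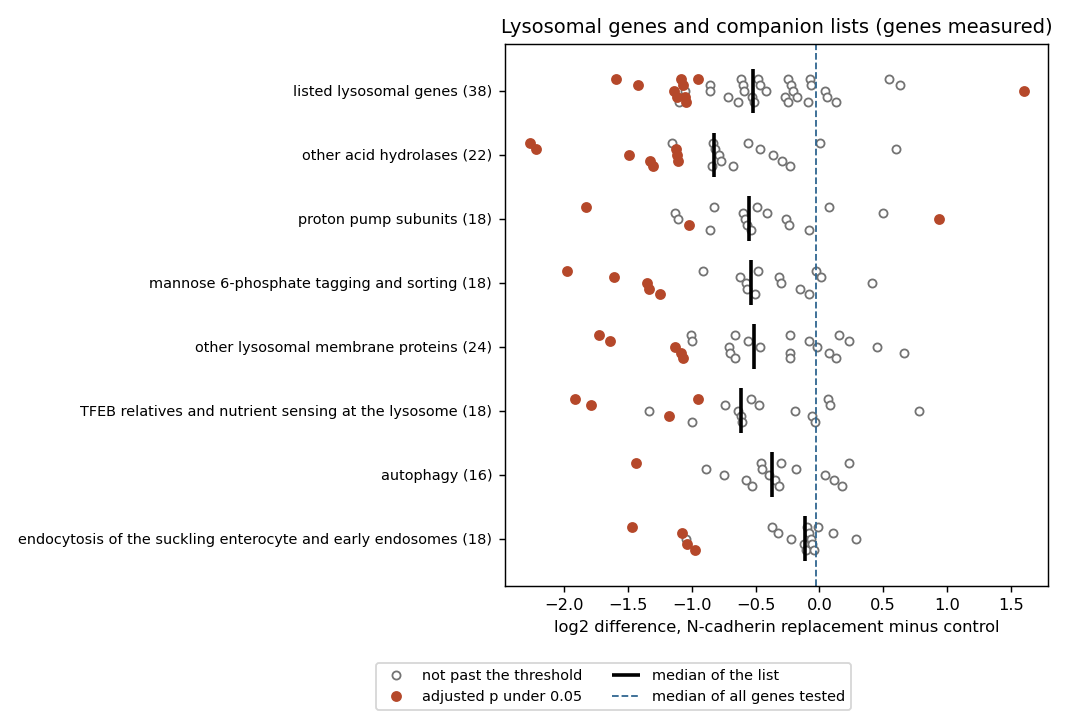
Log2 difference, replacement minus control, of the 38 lysosomal genes measured and of the genes measured in 7 companion lists, 1 point per gene. Filled points passed the threshold, the short black line is each list's median, and the dashed line the median of all genes tested, at -0.02. The medians of all lists lie left of the dashed line, that of the endocytosis list nearest to it.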

How the data were processed

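The deposited values were linear probe set intensities from 6 Affymetrix arrays, scaled before deposit: after trimming 2% from each end, every array had a mean of 100. GCRMA and limma were used by the authors, per the submitters' processing notes, with no version or order. How probe values were summarised is not stated there. The plan allowed for log2 or linear values, and intensities were floored at 16 before log2 was taken.

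Probe sets with at least 3 of 6 arrays at 16 or more were kept (26664, 59.1%). The platform annotation gave 34945 probe sets 1 symbol and 932 several, and 34741 of the first matched RefSeq genes by Entrez identifier. The probe set with the highest mean stood for its gene, which gave 12994 genes. Control 2 and control 3 were averaged.

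Differences, replacement minus control, were fitted with limma 3.58.1 (lmFit, eBayes) in R 4.3.3, with Benjamini-Hochberg adjustment over all genes and a threshold of 0.05, and the steps were tested on simulated data. Values per array are given for genes past the threshold, genes whose groups did not overlap and the 2 genes of each role with the smallest p. Companion genes are named where they passed, and Mcoln2 is named beside the other mucolipins. The companion and marker lists, like the members, were chosen with earlier results of these data known. Promoters came from RefSeq tables, and tables and figures were made with Python 3.11.15 and matplotlib 3.10.9. Alternatives were other filters, floors, scalings, probe set rules, fits and arrays left out.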

Additional observations from a re-analysis of the deposited data

How the results depend on the processing

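Of the 38 lysosomal genes measured, 9 were lower and 1 higher, where 4.66% of all genes tested were lower. With all 6 arrays as separate replicates 15 were lower, where 9.50% of all genes were. With the replicate block 13 were lower, where 8.53% of all genes were. Same-numbered samples deviated together with correlations of 0.213, 0.0814 and 0.142, and not every sample correlated best with its own number, so the numbers were not taken to pair the samples. With a floor of 4, and with each array scaled to its median, 3 were lower, where 2.92% and 3.97% of all genes were. Without a filter 0 were lower in limma, with 17 at an unadjusted p under 0.05, and Ctsc alone was called among them. Of all 18193 genes tested without a filter, 0.506% were lower. With the mean of all probe sets 7 were lower, where 4.41% of all genes were, and 0 were higher. The Neu1 and Idua calls ended there (limma adjusted p 0.0950 for Neu1 and 0.147 for Idua). Without control 2 and control 3, 0 were lower and 0 higher in limma, with 9 lower at an unadjusted p under 0.05. Leaving out each array in turn gave 0 to 8 lower and 0 to 1 higher, the 0 in each case without control 1, where 18 were lower at an unadjusted p under 0.05. The other settings, a filter of 64, quantile normalization, no cross-hybridizing probe sets, other eBayes options and a sex term, gave 8 to 11 lower and 1 higher. Of all genes tested, 4.37% to 7.82% were lower in these settings. The median difference of the lysosomal genes lay between -0.72 and -0.32 in every setting. No direction reversed among the called genes. Of 180 repeats of the 10 calls 113 kept the call and 67 lost it, while 16 repeats of the other genes gained one and 486 did not. Tfeb, Mcoln3 and Ctsc kept theirs in 15 of 18 settings and Glb1 in 6. The causes of these changes were not tested. The share of all genes at an unadjusted p under 0.05 was counted with the main settings only. The unadjusted counts of the other settings therefore have no comparison. No array of a measured member lay under the floor, and with 3 arrays a group a call can rest on a single sample.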
